A study of Saccharomyces cerevisiae with 10 samples.

Results

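Budding yeast, Saccharomyces cerevisiae, transcribes its nuclear genome with 3 related enzymes, and the genes for their subunits were followed here during the first 10 hours of filamentous growth. The members were the open reading frames whose standard gene symbol is RPA, RPB, RPC or RPO followed by a number. Of 6292 open reading frames in the table, 31 fitted, and all 31 had enough values to be tested. By known subunit makeup, 7 belong to polymerase I alone, 7 to polymerase II alone, 9 to polymerase III alone, 2 to polymerases I and III, and 5 to all 3 enzymes. RPO41 also fits the symbol but encodes the separate RNA polymerase of mitochondria, and it is described apart. RET1, the second-largest subunit of polymerase III, carries another kind of symbol and was not a member.

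RNA polymerase I makes the large ribosomal RNA precursor, polymerase II makes messenger RNA, and polymerase III makes transfer RNA and the smallest ribosomal RNA. Each enzyme is built around a largest and a second-largest subunit, which together form the active site, on a platform of alpha-like and shared small subunits. A stalk of 2 subunits binds the emerging RNA. In growing yeast the output of polymerases I and III follows the demand for ribosomes, and that of polymerase III is held back by the repressor MAF1 when nutrients run short.

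Wild-type diploid cells growing as yeast form in liquid SHAD, with ample glucose and ammonium, were moved to SLAD agar, which is low in ammonium and on which diploids form filaments. There were 10 two-colour arrays, 1 for each hour from 1 to 10, each of which carried total RNA of filamentous-form cells of that hour beside RNA of yeast-form cells. No hour had a second array. The labels do not say if every array carried the same yeast-form RNA, so it counts as 1 control whose own spread is not measured. Values are log2 ratios written as filamentous over yeast form. That direction rests on which channel the labels list first, is likely but not stated, and every sign below turns if the ratio runs the other way.

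Each array was centred on its median, so a ratio of 0 is that of the middle gene of the array and every difference is relative to it. The deposited medians lay between 0.12 and 0.39 with a mean of 0.30. Between 5802 and 6063 values per array could be used. A gene needed 8 of 10 values to be tested, which left 5775 genes. A ratio carries no level of expression, so the diploid identity of the cells could not be checked by marker levels. Of 12 listed genes known to be repressed in diploids, 9 were tested. In limma 2 of them were higher and 3 lower (median -0.17). Without centring, on the deposited scale, 3 were higher and 0 lower (median 0.13). The shares of all genes tested that were called higher and lower were 22.6% and 22.4% with centring and 38.8% and 15.3% without it. Arrays of odd hours and arrays of even hours stood apart for some genes. A limma term for odd minus even hours passed for 367 of 5775 genes (6.35%), the labels name no such batch, and odd and even values are therefore given for the members that passed.

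Subunit genes were more often higher than lower in filamentous-form cells. In the limma fit of the mean over hours, with adjusted p under 0.05, 15 of 31 members (48.4%) were higher, against 22.6% of all genes tested. Another 4 members (12.9%) were lower, against 22.4% of all genes, and 12 did not pass. In either direction 45.0% of all genes passed. The median of the members' mean log2 ratios was 0.49, beside 0.08 for all genes tested. On the deposited scale, without centring, 19 members were higher and 2 lower, beside 38.8% and 15.3% of all genes (54.2% in either direction), with a median of 0.79. The differences were small for most members. Only RPC82 among the higher genes and RPB3 among the lower ones passed with a difference of at least 2-fold, beside 8.47% and 10.3% of all genes.

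The number of calls depended on single hours. It was 8 higher members without hour 10 and 9 without hour 6. Leaving out an hour leaves fewer arrays for every gene, and the shares of all genes called in those fits were not counted. With odd hours alone 4 members were higher and 3 lower, beside 14.0% and 16.1% of all genes (30.1% in either direction), and with even hours alone 9 were higher and 3 lower, beside 20.8% and 23.4% (44.2% in either direction). The odd and even means of all 19 called members had the same sign, which being called on the mean of these same hours favours. Only RPB2 and RPB3 passed in both sets of hours alone. Another 9 passed with even hours alone, 2 with odd hours alone and 6 with neither. Of the 19 calls, 11 were kept whichever hour was left out, among them 8 of the higher ones. For all called genes, neither the share kept in this way nor the share passing in both sets of hours was counted. Those 11 were RPA190, RPB2, RPB3, RPB7, RPO21, RPC11, RPC17, RPC82, RPB5, RPB8 and RPC10. The other 8 calls, for RPA12, RPA14, RPB4, RPB9, RPO31, RPC19, RPC40 and RPO41, were each lost without at least 2 of the 10 hours, with adjusted p-values of up to 0.21 in limma.

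**Figure D1:**
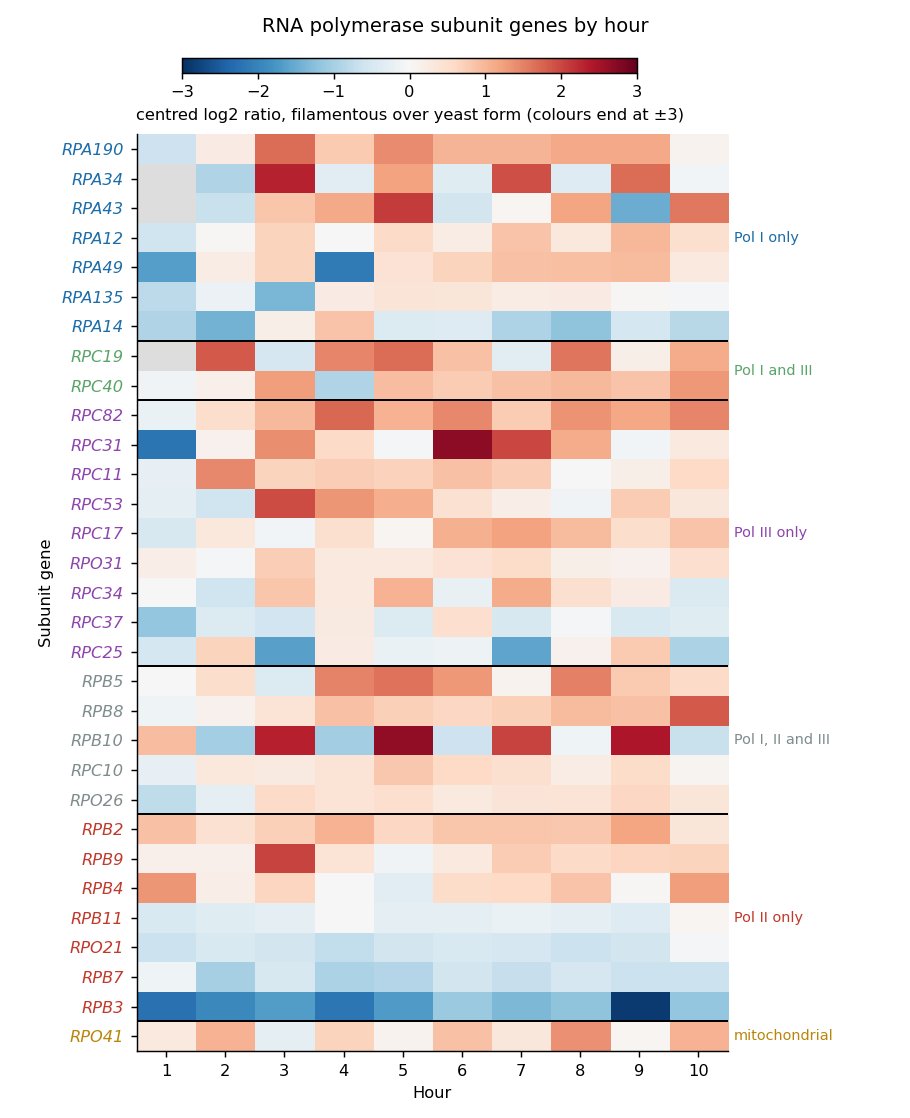
Centred log2 ratio of each of the 31 subunit genes (vertical axis, grouped by enzyme and ordered by mean within a group) at each hour (horizontal axis), red for higher and blue for lower in filamentous-form cells and grey for a missing value. RPB3 was below 0 at all 10 hours, and RPB10 was above 0 at all odd and below 0 at all even hours.

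By enzyme, the calls among subunits of polymerase II alone fell on both sides of 0, and those among subunits of polymerase III alone fell on the higher side in the fit of the mean. Subunits found only in polymerase III had a median of mean log2 ratios of 0.49, with 4 of 9 higher and 0 lower in limma, where 1 was lower at an unadjusted p under 0.05 (RPC37) and passed with an odd-minus-even term in the fit. For those of polymerase I alone the median was 0.36, with 2 of 7 higher and 1 lower. For those of polymerase II alone it was -0.25, with 3 of 7 higher and 3 lower. The 5 subunits shared by all 3 enzymes had a median of 0.69, with 3 higher and 0 lower, and both subunits shared by polymerases I and III were higher. Of all genes tested, 22.6% were higher and 22.4% lower. The genes of an enzyme are few and are not replicates of it, so these medians and counts are a description and carry no test.

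On the deposited scale the medians were 0.65 for polymerase I, 0.05 for polymerase II and 0.79 for polymerase III. The sign of the polymerase II median thus depends on centring. Its place below the others was the same on both scales, which is built in, because centring shifts all genes of an array alike. With the shared subunits counted in every enzyme that holds them, the medians were 0.51 for polymerase I, 0.43 for polymerase II and 0.54 for polymerase III. These lay closer together, which adding the same genes to each set favours.

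Hour by hour, the median of polymerase I subunits lay above that of polymerase II subunits on 9 of 10 arrays, by 0.52 ± 0.59 (SD over hours, n = 10). Hour 1 was the exception, with polymerase I lower by 0.66. The median of polymerase III subunits lay above that of polymerase II subunits on 9 of 10 arrays too, by 0.56 ± 0.33, again with hour 1 as the exception. At hour 10 the polymerase I and II medians were 0.11 and 0.07. Between polymerases I and III the difference was -0.04 ± 0.36 and had either sign.

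Odd hours and even hours gave mean gaps to polymerase II on the same side of 0. The gap between polymerases I and II was 0.72 ± 0.79 over the 5 odd hours and 0.32 ± 0.23 over the 5 even hours (SD over hours). Between polymerases III and II it was 0.62 ± 0.46 over odd and 0.49 ± 0.17 over even hours. The polymerase I median was high at odd hours from hour 3 on, at 0.57 to 0.94, and between 0.11 and 0.33 at even hours from hour 4 on.

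**Figure D2:**
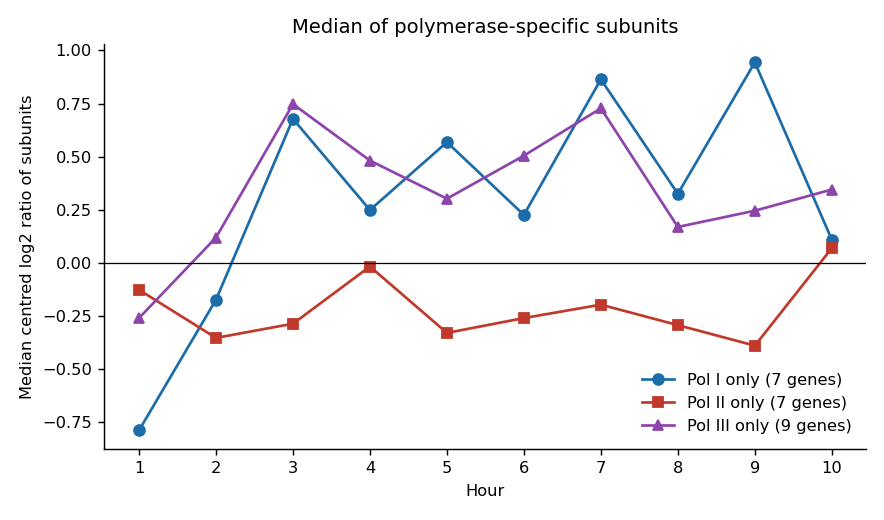
Median centred log2 ratio of the subunits found in only 1 enzyme (vertical axis) at each hour (horizontal axis), for 7 genes of polymerase I (5 measured at hour 1), 7 of polymerase II and 9 of polymerase III. The polymerase II line lies below the other lines at every hour but hour 1.

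Among the subunits of polymerase I, RPA190, the largest subunit, was higher with the smallest adjusted p. Its ratio was lowest at hour 1, at -0.61, had a median of 1.02 and peaked at 1.66 at hour 3. It lay above 0 on 9 of 10 arrays, with a mean of 0.79 ± 0.68 (SD over hours, n = 10), a 1.73-fold difference (limma adjusted p = 0.0015). Its mean was 0.92 over odd and 0.66 over even hours, and the call was lost with odd hours alone (adjusted p = 0.074). RPA135, the second-largest subunit, stood at -0.09 ± 0.57 and missed the threshold (limma adjusted p = 0.68, 95% interval -0.43 to 0.25). Whether these 2 partners in the active site differ from each other was not tested.

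RPA12, a zinc ribbon subunit that helps the enzyme cleave RNA when it backtracks, had a mean of 0.36 ± 0.47 (limma adjusted p = 0.043) and was above 0 at every hour but hour 1. Odd hours averaged 0.50 and even hours 0.21. Its call was lost without any 1 of 8 hours. RPA14, a stalk subunit, was lower, at -0.56 ± 0.67 (limma adjusted p = 0.045), with 8 of 10 arrays below 0 and values above 0 at hours 3 and 4. Odd hours averaged -0.52 and even hours -0.60. Its call was also lost without any 1 of 8 hours, and on the deposited scale its mean was -0.26 (adjusted p = 0.31). With an odd-minus-even term in the fit it just missed the threshold (adjusted p = 0.0501). The gene overlaps the annotated frame YDR157W, whose mean of -0.04 ± 0.59 did not pass (limma adjusted p = 0.85).

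The other 3 subunits of polymerase I had wide spreads over the hours and did not pass. RPA43, the larger stalk subunit and the one that binds the initiation factor RRN3, ranged from -1.50 at hour 9 to 2.10 at hour 5, with a mean of 0.46 ± 1.19 (n = 9). RPA49 and RPA34 form a TFIIF-like pair on the enzyme. RPA49 had a mean of 0.12 ± 1.09, with 8 of 10 arrays above 0 and values of -1.65 at hour 1 and -2.11 at hour 4. RPA34 had a mean of 0.56 ± 1.20 (n = 9) and split by odd and even hours, as described below. RPA43 and RPA190 are neighbours that are transcribed away from each other. At hour 9 RPA190 stood at 1.13 and RPA43 at -1.50, and at hour 10 they stood at 0.11 and 1.59.

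RPC40 and RPC19, the alpha-like subunits that polymerases I and III share and on which both enzymes are assembled, were higher. RPC40 ranged from -0.91 at hour 4 to 1.31 at hour 10 and had a mean of 0.61 ± 0.69 (limma adjusted p = 0.026), with 0.76 over odd hours (adjusted p alone 0.0447) and 0.46 over even hours (0.284). RPC19 ranged from -0.50 at hour 3 to 1.83 at hour 2, with a mean of 0.88 ± 0.89 (n = 9, limma adjusted p = 0.038). Its mean was 1.38 over the 5 even hours and 0.255 over the 4 odd hours measured (limma adjusted p alone 0.00159 and 0.658), and the odd-minus-even difference did not pass (adjusted p = 0.23). The RPC19 call was lost without hour 2 (adjusted p = 0.21) and without each of 5 other hours. The RPC40 call was lost without each of hours 5 to 10, with adjusted p-values from 0.053 to 0.077.

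In polymerase III, RPC82 was the highest of all members. RPC82 is a TFIIE-like subunit that acts in promoter opening together with RPC34 and RPC31. Its ratio was -0.19 at hour 1, lay between 0.52 and 1.73 at every later hour, and had a mean of 1.03 ± 0.56 (n = 10), a 2.04-fold difference (limma adjusted p = 2.0e-04). Its mean was 0.75 over odd and 1.30 over even hours, and the call was lost with odd hours alone (adjusted p = 0.053). Its partners did not pass the test. RPC34 had a mean of 0.28 ± 0.60 (limma adjusted p = 0.21), and RPC31 had a mean of 0.58 ± 1.34 (limma adjusted p = 0.11). RPC31 had the widest range of the polymerase III genes, from -2.20 at hour 1 to 2.67 at hour 6.

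RPC11, the zinc ribbon subunit needed for RNA cleavage and termination, had a mean of 0.57 ± 0.48 and was above 0 on 9 of 10 arrays (limma adjusted p = 0.015). RPC17, a stalk subunit, had a mean of 0.49 ± 0.54 with 8 of 10 arrays above 0 (limma adjusted p = 0.010). RPO31, the largest subunit, had a smaller mean of 0.33 with a narrow spread of 0.23, 9 of 10 arrays above 0 and values between -0.03 and 0.75 (limma adjusted p = 0.032). All 3 passed as higher, but the RPO31 call was lost without any 1 of 6 hours. Over odd hours the means were 0.40 for RPC11, 0.25 for RPC17 and 0.39 for RPO31, and over even hours they were 0.73, 0.73 and 0.27. RPC11 and RPC17 passed with even hours alone (limma adjusted p = 0.0319 and 0.0134) but not with odd hours alone, and RPO31 passed with neither.

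RPC53 and RPC37, a TFIIF-like pair, lay on opposite sides of 0 and did not pass. RPC53 had a mean of 0.52 ± 0.78 (limma adjusted p = 0.095), and RPC37 had a mean of -0.31 ± 0.46 (limma adjusted p = 0.079). RPC37 did pass as lower with an odd-minus-even term in the fit (adjusted p = 0.0209), with odd hours alone (0.0499) and without hour 6 (0.0394). RPC25, the larger stalk subunit and partner of RPC17, had a mean of -0.32 ± 0.85 and ranged from -1.62 at hour 3 to 0.78 at hour 9 (limma adjusted p = 0.37). On the deposited scale RPC31, RPC34 and RPC53 passed as higher too, with adjusted p-values of 0.0188, 0.0165 and 0.0159. RPC25 and RPC37 then stood at -0.03 and -0.02.

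Of the 5 subunits common to all 3 enzymes, RPB5, RPB8 and RPC10 were higher. RPB5, which sits in the jaw that grips the template, ranged from -0.42 at hour 3 to 1.64 at hour 5 and had a mean of 0.75 ± 0.72 (limma adjusted p = 0.012), with 0.42 over odd hours (adjusted p alone 0.339) and 1.08 over even hours (0.00699). RPB8 had a mean of 0.70 ± 0.53, below 0 only at hour 1 and highest at hour 10, at 1.84 (limma adjusted p = 7.8e-04), with 0.52 over odd hours (adjusted p alone 0.108) and 0.88 over even hours (0.0262). RPC10, a small zinc-binding subunit of the platform, had a mean of 0.35 ± 0.29, with only hour 1 below 0 (limma adjusted p = 0.014). Its odd and even hours averaged 0.38 and 0.32 and passed in neither set alone (limma adjusted p = 0.215 and 0.117). RPO26 had a mean of 0.25 ± 0.43 and missed the threshold (limma adjusted p = 0.087), but passed without hour 1 (adjusted p = 0.031) and on the deposited scale (adjusted p = 0.00335). The fifth, RPB10, had the largest spread over hours of all members.

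Subunits of polymerase II alone were divided between higher and lower, and the median spread of their ratios over the hours was the smallest. The median SD over hours was 0.26 for its 7 genes, beside 0.68 for polymerase I, 0.56 for polymerase III and 0.62 for all genes tested. The SDs of RPB3, RPB4 and RPB9 were wider, at 0.57, 0.54 and 0.59. Outside polymerase II, RPO31 at 0.23 and RPC10 at 0.29 had narrow spreads too. RPB3, the larger alpha-like subunit of polymerase II, was the lowest of all members. Its ratio was -2.25, -1.94, -1.66, -2.16 and -1.69 at hours 1 to 5 and -1.12, -1.36, -1.21, -2.86 and -1.16 at hours 6 to 10. All 10 values were below 0, and hour 9 was the lowest. The mean was -1.74 ± 0.57, a 3.34-fold difference (limma adjusted p = 3.2e-05), with odd and even means of -1.96 and -1.52.

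RPB2, the second-largest subunit, was the only member (3.23%) above 0 at every hour on the centred scale, beside 9.84% of all genes tested. Its ratio ran from 0.36 at hour 10 to 1.18 at hour 9 with a median of 0.82. The mean was 0.77 ± 0.24, a 1.71-fold difference (limma adjusted p = 3.0e-04), and it was 0.84 over odd and 0.70 over even hours. RPO21, the largest subunit, whose tail of repeats is phosphorylated during transcription, was below 0 at every hour on the centred scale. Its ratio was lowest at hour 4, at -0.74, and highest at hour 10, at -0.0532, with a mean of -0.52 ± 0.19 (limma adjusted p = 0.0014). The mean was -0.22 on the deposited scale, where RPO21 did not pass (adjusted p = 0.076). Odd hours averaged -0.57 (limma adjusted p alone 0.0411) and even hours -0.47 (0.0502).

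RPB7, the stalk subunit that touches the emerging RNA, was also below 0 at every hour on the centred scale. It ran from -0.99 at hour 2 to -0.13 at hour 1. Its mean was -0.65 ± 0.26 (limma adjusted p = 8.8e-04), and on the deposited scale it was -0.35 and still passed as lower. Odd hours averaged -0.57 (limma adjusted p alone 0.0608) and even hours -0.73 (0.00887). With RPB3 and RPO21, 3 of 31 members (9.68%) were below 0 on every array on the centred scale, beside 14.3% of all genes tested. RPB4, its partner in the stalk, lay on the other side, with 9 of 10 arrays above 0 and a mean of 0.52 ± 0.54 (limma adjusted p = 0.019), made up of 0.45 at odd and 0.58 at even hours, neither of which passed alone. The RPB4 call was lost without hour 1 (adjusted p = 0.059) and without hour 10 (adjusted p = 0.0655).

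RPB9, the zinc ribbon subunit, had a mean of 0.56 ± 0.59 (limma adjusted p = 0.041), which included a single high value of 2.04 at hour 3. Its odd hours averaged 0.70 and its even hours 0.42, and it passed in neither set alone. Its call was lost without each of hours 4, 6, 7, 8, 9 and 10, but not without hour 3. RPB11, the smaller alpha-like subunit, had the smallest spread of all members, with a mean of -0.25 ± 0.16 that missed the threshold (limma adjusted p = 0.058) and passed with an odd-minus-even term (adjusted p = 0.0489). Its ratio was below 0 on 9 of 10 arrays on the centred scale, but the mean was 0.05 on the deposited scale.

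**Figure D3:**
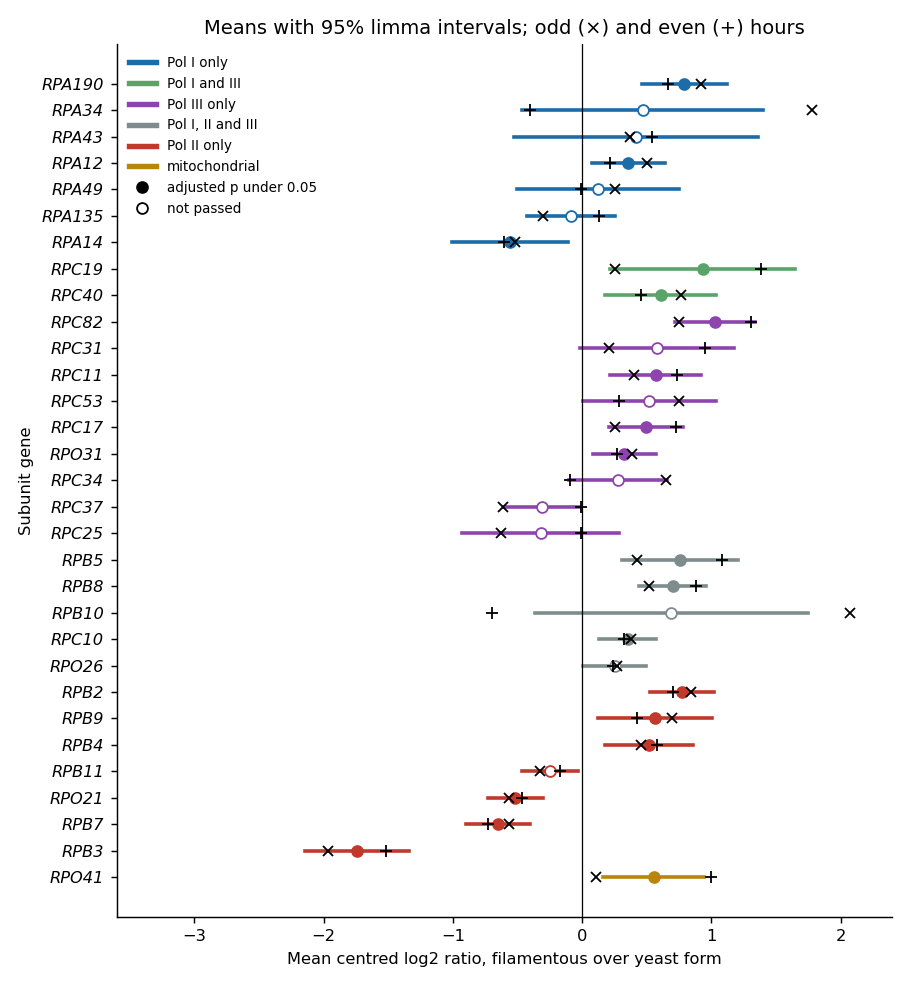
Fitted mean centred log2 ratio over the hours of each subunit gene (circles, filled where the limma adjusted p was under 0.05) with its 95% interval (bars), and the means of odd (×) and even (+) hours, with the log2 ratio on the horizontal axis. RPB3 lies farthest from 0 on the lower side, RPC82 farthest on the higher side, and for RPB10 and RPA34 the odd and even means lie on opposite sides of 0.

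The enzymes share a common plan, so homologous subunits held by separate genes could be set against each other on the same array, where centring cancels. The 17 pairs over 7 positions were chosen by known homology after the values had been seen, RET1 included. Each difference was tested with an exact two-sided sign-flip permutation test over arrays, adjusted over the 17 pairs, for which the smallest p is 0.00195 with 10 arrays. In all, 8 of the 17 pairs differed. The share of other pairs of genes that would pass was not counted, so the number is not particular to these enzymes. In the separate limma test of single genes against 0, 45.0% of all genes passed in either direction. The test takes the hours as independent.

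The widest gap was at the larger alpha-like position. RPC40 of polymerases I and III exceeded RPB3 of polymerase II on 10 of 10 arrays, by 2.35 ± 0.66 on the log2 scale (exact adjusted p = 0.0083). At the smaller alpha-like position RPC19 exceeded RPB11 on 7 of 9 arrays, by 1.11 ± 0.89 (exact adjusted p = 0.033). Both alpha-like positions thus had the ratio of polymerase II below that of polymerases I and III.

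At the largest subunit polymerase II was again the lowest. RPA190 exceeded RPO21 on 10 of 10 arrays, by 1.31 ± 0.75, and RPO31 exceeded RPO21 on 10 of 10 arrays, by 0.84 ± 0.25 (exact adjusted p = 0.0083 for each). RPA190 and RPO31 did not differ past the threshold, at 0.46 ± 0.63 (95% interval 0.00081 to 0.88, exact adjusted p = 0.083), though they did without hour 1 (exact adjusted p = 0.0398). At the second-largest subunit the order was turned. RPA135 was below RPB2 on 10 of 10 arrays, with a difference of -0.86 ± 0.59 (exact adjusted p = 0.0083), and RET1 was below RPB2 on 7 of 10 arrays, with a difference of -0.90 ± 0.89 (exact adjusted p = 0.033). No single direction therefore held for polymerase II across positions.

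At the smaller stalk position RPA14 stood below its counterparts. The difference was -1.08 ± 1.00 from RPB4, with 9 of 10 arrays below 0, and -1.05 ± 0.93 from RPC17, with 8 of 10 arrays below 0 (exact adjusted p = 0.033 for each). RPC17 and RPB4 differed by -0.03 ± 0.76 (95% interval -0.61 to 0.46). At the larger stalk position no pair passed, and the widest difference, RPA43 over RPB7, was 1.17 ± 1.22 (exact adjusted p = 0.059). That pair passed after quantile normalization and with arrays scaled to equal spread (exact adjusted p = 0.0443 for each), which made 9 pairs. At the zinc ribbon position no pair passed either. Those differences were between -0.21 and 0.01, and their 95% intervals together ran from -0.65 to 0.56.

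The pairs RPC40 and RPB3, RPA190 and RPO21, RPO31 and RPO21, and RPA135 and RPB2 passed in all 14 other settings tried. Not all settings could change a pair. The deposited scale returns the same differences by construction, as does keeping exact zeros for pairs without a missing value. The other 4 differences passed in 7 or 8 of the 14. With an hour left out, RET1 and RPB2 passed only without hour 3, 5 or 7. RPC19 and RPB11 passed only without hour 1, where RPC19 had no value, 3 or 7. RPA14 passed against RPB4 only without hour 3, 4 or 5, and against RPC17 also without hour 1. Thus 4 pairs remained past the threshold without hour 2, 6, 8, 9 or 10. The difference of RET1 from RPB2 was -1.59 over even hours and -0.21 over odd hours, and these were not tested against each other.

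**Figure D4:**
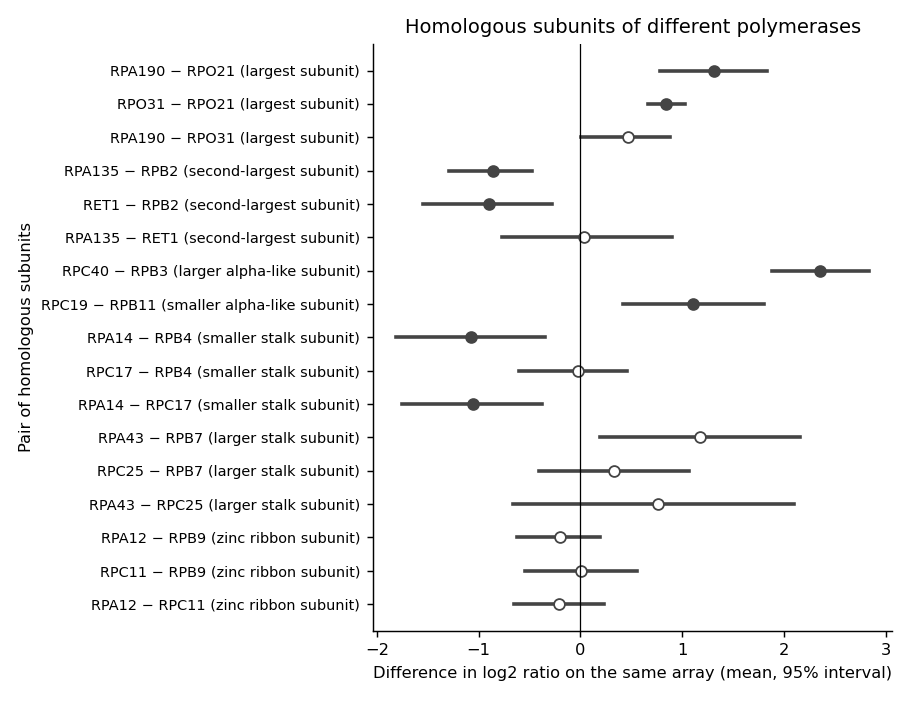
Mean difference in log2 ratio on the same array (horizontal axis, circles, filled where the exact adjusted p was under 0.05) with its 95% interval (bars) for 17 pairs of homologous subunits (vertical axis, first minus second). The pair RPC40 and RPB3 lies farthest from 0, at 2.35, and all 3 zinc ribbon pairs lie near 0.

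Odd and even hours split 2 members. An odd-minus-even term passed for 2 of 31 (6.45%), beside 6.35% of all genes tested (4.35% with odd hours higher and 2.01% with even hours higher), so the share was near the background. RPB10, a small zinc-binding subunit common to all 3 enzymes, stood at 0.93, 2.33, 2.66, 2.04 and 2.42 at hours 1, 3, 5, 7 and 9. It stood at -1.02, -1.04, -0.61, -0.13 and -0.68 at hours 2, 4, 6, 8 and 10. The sets do not overlap, and the odd-minus-even difference was 2.88 (95% interval 2.29 to 3.46, limma adjusted p = 0.0014).

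RPA34 of polymerase I had the same alternation, at 2.30, 1.20, 1.93 and 1.66 at hours 3, 5, 7 and 9. It stood at -0.90, -0.31, -0.35, -0.38 and -0.08 at hours 2 to 10 in steps of 2, with hour 1 missing. The difference was 2.19 (95% interval 1.48 to 2.90, limma adjusted p = 0.0093). Without an odd-minus-even term neither gene passed for the mean over hours. With it both did, RPB10 at 0.69 (limma adjusted p = 0.00183) and RPA34 at 0.68 (limma adjusted p = 0.00845), although their even hours lay below 0. Over odd hours alone RPB10 was higher, at 2.07 (limma adjusted p = 0.0017), and over even hours alone it was lower, at -0.70 (adjusted p = 0.020).

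RET1, outside the symbol rule, alternated as well, with means of 0.64 over odd and -0.89 over even hours and a difference of 1.58 (limma adjusted p = 0.011). Its mean over hours was -0.12 ± 0.88 (limma adjusted p = 0.75). RPO41, the mitochondrial polymerase, leaned the other way. Its means were 0.11 over odd and 1.00 over even hours, a difference of -0.87 (95% interval -1.37 to -0.37) that missed the threshold at an adjusted p of 0.051. The mean of RPO41 over hours was 0.55 ± 0.53, with 9 of 10 arrays above 0 (limma adjusted p = 0.026), lost without hour 6, 8 or 10. For 5 of 31 members (16.1%) the odd and even means had opposite signs, beside 29.3% of all genes tested. What sets odd and even arrays apart was not tested.

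**Figure D5:**
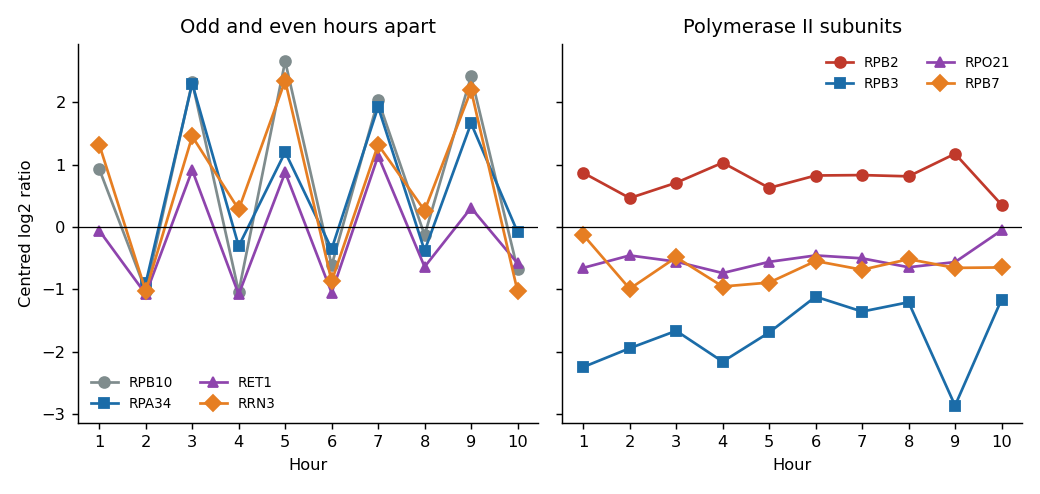
Centred log2 ratio (vertical axis) by hour (horizontal axis) of the alternating genes RPB10, RPA34, RET1 and RRN3 (left) and of 4 subunits found only in polymerase II (right). RPB10 moves between 0.93 to 2.66 at odd hours and -1.04 to -0.13 at even hours, while RPB2 stays above and RPB3, RPO21 and RPB7 stay below 0.

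Over time, hour 1 stood apart for many subunits. Of 28 members measured at hour 1, 11 (39.3%) had their lowest value there, beside 16.7% of all genes measured at that hour. These 11 were RPA12, RPA190, RPB11, RPC11, RPC17, RPC31, RPC37, RPC82, RPB8, RPC10 and RPO26. At hour 1 only 8 of 28 members were above 0, at hour 2 it was 17 of 31, and from hour 3 on between 20 and 23 of 31. Centring puts the middle gene of each array at 0, so about as many genes lie above 0 as below it at every hour. All 5 measured subunits of polymerase I alone were below 0 at hour 1, beside 2807 of the 5663 tested genes measured then. At hour 1, RPC31 stood at -2.20, RPA49 at -1.65 and RPC37 at -1.16. Hour 1 is a single array, so its scatter could not be measured.

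The linear change over hours passed for 0 of 31 members in limma, as for 0 of all 5775 genes. At an unadjusted p under 0.05 it held for 5 members (16.1%), all rising, beside 11.1% of all genes in either direction and 6.13% rising. They were RPB8, at 0.15 per hour, RPC17, at 0.13, RPC82, at 0.11, RPA12, at 0.10, and RPO26, at 0.09. Without hour 1 only 1 member remained at that level, RPB8 (0.14 per hour, unadjusted p = 0.019), beside 6.48% of the 5830 genes tested without that hour.

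The factors that bring the enzymes to promoters were read from lists chosen with earlier results of these data known. Among 8 tested polymerase III factors 3 were higher and 2 lower, at a median of 0.22, beside 22.6% and 22.4% of all genes. BDP1, a subunit of the initiation factor TFIIIB, was far above the others, with all 10 values between 1.38 and 3.04 and a mean of 2.07 ± 0.48 (limma adjusted p = 2.51e-06). TFC8 and TFC3, subunits of TFIIIC, were higher, at 1.11 ± 0.58 and 0.83 ± 0.79 (limma adjusted p = 0.000945 and 0.00666). BRF1, another subunit of TFIIIB, was lower, at -0.54 ± 0.38 (limma adjusted p = 0.0094). MAF1, the repressor of polymerase III, was below 0 on 10 of 10 arrays, from -1.87 at hour 1 to -0.31 at hour 10, with a mean of -0.68 ± 0.47 (limma adjusted p = 0.0035). BDP1, TFC8 and MAF1 passed with odd and with even hours alone. TFC3 and BRF1 passed with even hours alone (limma adjusted p = 0.00669 and 0.00486) but not with odd hours alone (0.369 and 0.35). On the deposited scale BRF1 and MAF1 did not pass.

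Among 7 tested polymerase I factors, beside the same shares of all genes, 1 was lower and 0 were higher in limma, 0 also at an unadjusted p under 0.05, where HMO1 came nearest (p = 0.0581). Their median was 0.23. The lower one was RRN11, of the core factor, at -0.55 ± 0.43 (limma adjusted p = 0.013), a call lost on the deposited scale. RRN11 passed with even hours alone (limma adjusted p = 0.00964) but not with odd hours alone (0.342). RRN3, which links RPA43 to the promoter, alternated like RPB10, with means of 1.73 over odd and -0.48 over even hours (odd minus even 2.24, limma adjusted p = 0.012). Over all hours the mean was 0.63 ± 1.29 (limma adjusted p = 0.227).

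Among 20 tested polymerase II factors 6 were higher and 2 lower, beside 22.6% and 22.4% of all genes, and the median was 0.54. The higher ones with the smallest p were SSL1 of TFIIH at 0.59 ± 0.37, TFG1 of TFIIF at 0.56 ± 0.41 and TFA1 of TFIIE at 0.65 ± 0.35 (n = 8), with limma adjusted p-values of 0.00306, 0.00406 and 0.00615. The count was 3 without hour 8 and 11 on the deposited scale, where 38.8% of all genes were higher. The lower ones were SPT4, an elongation factor, at -1.54 ± 0.38 (limma adjusted p = 1.3e-05), below 0 on 10 of 10 arrays, and KIN28, the TFIIH kinase of the RPO21 tail, at -0.74 ± 0.59 (limma adjusted p = 0.0026). With odd or even hours alone, SPT4 passed in both sets, SSL1, TFG1 and KIN28 only in odd hours, and TFA1 only in even hours. SPT5, the partner of SPT4, stood at 0.73 ± 0.98 (limma adjusted p = 0.0596), a difference that missed the threshold. Its odd hours averaged 1.43 (limma adjusted p alone 0.0109) and its even hours 0.03 (0.935). The odd-minus-even difference did not pass (limma adjusted p = 0.0715).

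SPT15, the TATA-binding protein used by all 3 enzymes, stood at -0.17 ± 0.20 and missed the threshold (limma adjusted p = 0.19). Of 6 tested factors for assembly and nuclear import of the polymerases, 3 were higher, beside 22.6% of all genes, and 0 lower in limma, 0 also at an unadjusted p under 0.05, and their median was 0.57. NPA3, a GTPase of polymerase assembly and import, was above 0 on 10 of 10 arrays, with a mean of 1.55 ± 0.63 (limma adjusted p = 6.8e-05). RTR1, a phosphatase of the RPO21 tail, had a mean of 1.88 ± 1.46 (limma adjusted p = 0.0043). Its odd hours averaged 3.02 (adjusted p alone 0.000286) and its even hours 0.75 (0.193), and the odd-minus-even difference was 2.15 (limma adjusted p = 0.0395). GPN3, a relative of NPA3, had a mean of 0.46 ± 0.60 (limma adjusted p = 0.031). NPA3 passed with odd and with even hours alone, and GPN3 with neither.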

How the data were processed

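Filamentous-form and yeast-form RNA were compared on 10 two-colour arrays, 1 per hour. The deposited values are ratios per open reading frame on a log2 scale. Read with base 2, 97.3% of them are whole ten-thousandths as linear ratios (tolerance 0.02), beside 4.57% with base e and 4.79% with base 10. No source used here gives the scanner, dyes, background correction, normalization or direction of the ratio, and signal over background is unknown. Of 62920 values, 3324 (5.28%) are listed at the smallest size in the table, 3e-07, and were taken as missing zeros, 3 of them in members.

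Systematic names were matched to RefSeq assembly R64 for names, overlaps and neighbours only (5792 matched, 500 did not). Positions in that table gave overlaps and neighbours and are not printed. Promoter and protein sequences were not used here, so a planned description of promoter motifs was not made. After centring each array on its median, limma 3.58.1 (R 4.3.3; lmFit, then eBayes) was fitted to the 5775 genes with at least 8 values, with an intercept (the mean), linear and quadratic hour, and in a second fit an odd-minus-even term. All p-values are two-sided. Those from limma were adjusted by Benjamini-Hochberg over the genes tested, except where called unadjusted, and read at a threshold of 0.05. Printed means and SDs are those of the usable values over hours, while p-values and intervals of means come from the fit. For RPA34, RPA43 and RPC19 (9 values) the fitted mean differs slightly. With no repeated hour, error is the departure of single hours from a smooth curve, and nothing in the labels names separate cultures, so it may be technical. Pairs of subunits were compared with an exact sign-flip permutation test, adjusted over the 17 pairs. The fit was tested on simulated data. Figures were drawn with matplotlib 3.10.9.

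The members, lists, classes and tests were chosen with earlier results of these data known. All members are named, as are RET1, SPT15, MAF1 and, of each factor list, up to 3 genes per direction with the smallest adjusted p. RRN3, HMO1, SPT5 and YDR157W were named after their values were seen. Alternatives covered scaling, missing values, filters, the time model, odd and even hours, adjacent hours averaged, the variance model, array weights, the threshold and each hour left out.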

Additional observations from a re-analysis of the deposited data

Results flagged for a closer look

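Of 31 members, 2 had an hour that lay far from the other 9 relative to the whole range of the gene. Chance gives such a gap in about 1 of 20 genes, so this count is close to the chance rate. The share among all genes was not counted. RPB9 stood at 2.04 at hour 3, with its next value at 0.76, and its mean was 0.40 without that hour. RPO21 stood at -0.0532 at hour 10, with its next value at -0.46, and its mean was -0.57 without that hour.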

How the results depend on the processing

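Signal over background is unknown and each hour is a single array, which limits the precision. Arrays could not be paired with each other because all belong to 1 group and no replicate number is shared. Pairing was used only within arrays, for the homologous subunits. The number of higher members was 15, and 9 with even hours alone, 4 with odd hours alone, 4 at an adjusted p under 0.01, and 8 to 16 when each hour was left out. The shares of all genes at an adjusted p under 0.01 and with an hour left out were not counted. The number of lower members was 4, and 2 on the deposited scale and after quantile normalization, and 3 to 4 with an hour left out. The members that differed between odd and even hours numbered 2 or 3 in every setting, the third being RPO41. With genes of all 10 values only, RPA34 was not tested, and the 2 were RPB10 and RPO41. No member passed for a linear change in any setting. The polymerase II median of -0.25 was 0.0475 on the deposited scale, 0.0546 after quantile normalization and 0.43 with shared subunits added, and the polymerase III median of 0.49 was 0.80 after quantile normalization. With an hour left out the medians of polymerases I, II and III ran from 0.26 to 0.46, from -0.28 to -0.22 and from 0.35 to 0.60. The number of differing pairs was 8, 9 after quantile normalization and with equal spread, and 4 to 8 with an hour left out, where fewer arrays raise the smallest p the test can give. Of 741 recomputed member means, 619 kept their side of the threshold, 94 lost a call, 25 gained one and 3 were counted as reversed. Those 3 were RPB11 at 0.0475 on the deposited scale and 0.0546 after quantile normalization, and RPB10 at -0.70 with even hours alone. Some means that passed in neither fit also changed sign and were counted as kept. Among them were RPA135, at -0.0877 in the main fit and 0.2083 on the deposited scale, and RPA34, at 0.4681 and at -0.4032 with even hours alone. The cause of these changes was not tested beyond the construction of each setting. The higher and lower factors of polymerase III numbered 3 and 2, and the lower ones were 0 on the deposited scale, 1 with odd hours alone and 1 after quantile normalization. Those of polymerase II numbered 6 and 2, and the higher ones were 12 after quantile normalization and 3 at an adjusted p under 0.01. The 1 lower factor of polymerase I became 2 with even hours alone and 0 on the deposited scale, after quantile normalization, with odd hours alone and at an adjusted p under 0.01, and 1 factor was higher on the deposited scale, after quantile normalization, with adjacent hours averaged, with odd hours alone and with an odd-minus-even term in the fit.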
